A study of Homo sapiens with 2 samples.

Results

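The genes described here are 9 genes known from glioblastoma: the receptor tyrosine kinases EGFR, PDGFRA, PDGFRB, MET, AXL and IGF1R, the cell cycle kinase CDK6, the tumour suppressor NF1 and MTAP, an enzyme gene of the 9p21 region. A cluster was counted for a gene when its midpoint lay in the gene's hg19 window on the gene's strand. This rule found 21 of the 23782 clusters listed for ADAR1, an adenosine deaminase that acts on double-stranded RNA. They were mapped by CLIP-seq, in which ultraviolet light links a protein to the RNA it touches before the protein is pulled down with an antibody, in U87MG, an established human glioblastoma line. The 2 libraries, 1 labelled AB1 and 1 labelled AB2, came from cells of this line at the same passage number, with no treatment named in the labels other than the light, and carry the same antibody catalogue entry. The series' design text names the antibodies as different ones, so the labels do not settle whether they were. The deposited list covers both libraries together, so the values below have no replicates. For each cluster it gives a position, the strand and whether it is Alu or non-Alu, with no read number, so the depth behind each cluster is unknown, and RNA levels of the 9 genes were not measured.

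ADAR1 changes adenosine to inosine in double-stranded RNA. In human cells such RNA forms mostly where 2 Alu repeats of opposite orientation lie in the same transcript, as is common in introns and in the untranslated parts of messenger RNAs. Receptor tyrosine kinases bind growth factors outside the cell and pass the signal to the RAS and PI3 kinase pathways. Gains of EGFR and PDGFRA and losses of NF1 and of 9p21 are well known in glioblastoma.

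ADAR1 clusters were listed in 7 of the 9 genes, and MET and AXL together held 9 of the 21. MET had 5 clusters, AXL and NF1 4 each, CDK6 3, EGFR and IGF1R 2 each and MTAP 1, while PDGFRA and PDGFRB had 0. For background, 21.3% of the 59272 windows of 100 kb on 1 strand held at least 1 cluster. Those windows include untranscribed sequence and differ in length from the genes, so the share is no measure of what a transcribed gene would hold. Of the 21 clusters, 14 were Alu and 7 non-Alu, where 15.1% of the whole list was non-Alu. The 21 clusters covered 4069 bases of the 1361.6 kb in the 9 windows.

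**Figure D1:**
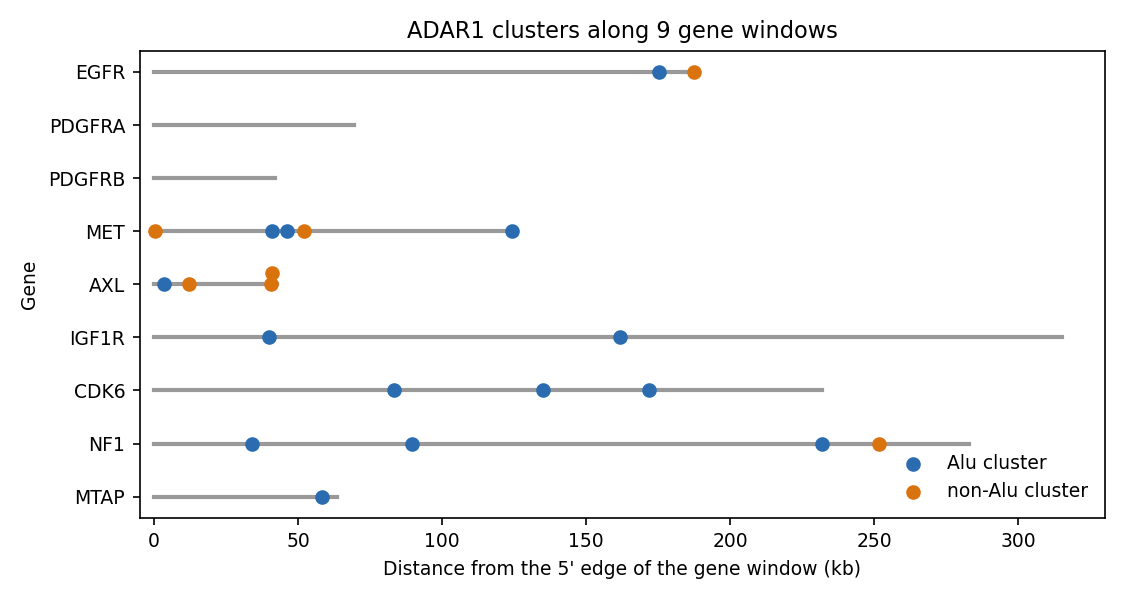
Position of each cluster (points, coloured by class) along the 9 gene windows (grey lines, to scale), with the distance from the 5′ edge of the window in kb on the x axis and the gene on the y axis. The close pair near the end of AXL is drawn with 1 point raised. MET and AXL held 5 and 4 clusters, IGF1R held 2 in the longest window, and PDGFRA and PDGFRB held 0.

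MET, the receptor for hepatocyte growth factor, lies in the plus-strand window chr7:116312400-116438500. Its clusters fell into a group of 3 in the body of the gene and 1 at each end. The first was non-Alu, 241 bases long, at chr7:116312460-116312700. It began 59 bases inside the 5′ edge of the window and ended 300 bases inside it. For scale, the first exon of the MET transcript whose span is closest to this window measures 186 bases in GENCODE release 29. That annotation is on another build (GRCh38), and only lengths were compared here, so no exon or intron is assigned to any cluster. The 3 clusters in the body lay between 32.4% and 41.3% of the window, separated by 4937 and 5877 bases. The first and second of them were Alu (235 and 175 bases long), and the last was non-Alu (177 bases). The fifth MET cluster, an Alu cluster of 159 bases at chr7:116436659-116436817, came 72.1 kb further on and began 1842 bases before the 3′ edge of the window. The last exon of the same MET transcript is 2500 bases long.

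AXL, the receptor for GAS6, lies on the plus strand in chr19:41725100-41767700. It was the only one of the 9 genes with more non-Alu than Alu clusters, 3 against 1. The single Alu cluster (205 bases) began 3.45 kb from the 5′ edge, and a non-Alu cluster of 251 bases followed 8268 bases later. The other two were non-Alu clusters near the 3′ end, only 56 bases apart. They were 308 and 262 bases long, at chr19:41765451-41765758 and chr19:41765815-41766076. The 308-base cluster was the longest of the 21, and 3.74% of the whole list was longer. The pair began 2250 and 1886 bases before the 3′ edge of the window. The last exon of the matching AXL transcript is 2214 bases long, 36 bases less than the first of these distances, and the window edges are multiples of 100 bases. Another same-strand cluster, in the Alu class and 221 bases long, lay 936 bases past the 3′ edge of AXL and is not among the 21.

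EGFR, the receptor for epidermal growth factor, lies on the plus strand in chr7:55086700-55275100 and had 2 clusters, both in the last 10% of its window. The first 175.2 kb of the window held 0. An Alu cluster of 246 bases lay at chr7:55261882-55262127. The other, at chr7:55274055-55274096, was non-Alu and only 42 bases long, and 0.395% of the whole list was as short or shorter. It began 1046 bases before the 3′ edge, and the last exon of the matching EGFR transcript is 2082 bases long. The nearest same-strand cluster upstream lay 4940 kb before the EGFR window, and the nearest downstream 171.4 kb after it.

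IGF1R, the receptor for insulin-like growth factor 1, has the longest window (315.1 kb, chr15:99192700-99507800, plus strand) and had 2 clusters, both Alu. They were 157 and 177 bases long and lay 121.8 kb apart, at 12.6% and 51.4% of the window. The part of the IGF1R window beyond 162 kb held none, and the last exon of the closest IGF1R transcript is 7469 bases long.

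PDGFRA (chr4:55095200-55164500, plus strand) and PDGFRB (chr5:149493400-149535500, minus strand), the receptors for platelet-derived growth factor, had no cluster on either strand. With a count of 0, up to 3 clusters are allowed by counting error, or 4.33 per 100 kb in PDGFRA and 7.13 in PDGFRB. The 2-sided Poisson intervals, as used for the other genes, reach 5.32 and 8.76 per 100 kb. These limits lie above the density of every other gene here except AXL. The zeros therefore do not set these receptors apart from the genes other than AXL. The AXL interval starts at 2.56 per 100 kb, below these limits, so it overlaps the intervals of both receptors. Of windows of the same length on the same strand of the same chromosome, 88.1% held 0 for PDGFRA and 90.8% for PDGFRB. The nearest same-strand clusters lay 811.5 kb upstream and 426.8 kb downstream of PDGFRA, and 66.4 and 115.9 kb away from PDGFRB.

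CDK6, the kinase that works with D-type cyclins to start the cell cycle, lies on the minus strand in chr7:92234200-92466000 and had 3 clusters, all Alu. They measured 144, 237 and 222 bases and lay at 35.9%, 58.2% and 74.1% of the window, 51.6 and 36.7 kb apart. The last of them began 60074 bases before the 3′ edge, while the last exon of the closest CDK6 transcript is 10366 bases long. A non-Alu cluster of 226 bases lay on the same strand 15039 bases past its 3′ edge.

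NF1, which encodes neurofibromin, a protein that turns off RAS, lies on the plus strand in chr17:29421900-29704700 and had 4 clusters. The Alu clusters measured 152, 288 and 109 bases and lay at 12.0%, 31.7% and 81.9% of the window. The fourth, at chr17:29673369-29673487, was non-Alu and 119 bases long. Gaps between NF1 clusters were 55.6, 141.9 and 19.7 kb, and 141.9 kb was the widest gap between consecutive clusters within any of the 9 genes.

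Density per length of window was highest in AXL and lowest, among genes with a cluster, in IGF1R. AXL had 9.39 clusters per 100 kb of window (95% Poisson interval 2.56 to 24.0) and MET 3.97 (1.29 to 9.25). MTAP followed with 1.58 (0.0399 to 8.79), which rests on 1 cluster, then NF1 with 1.41 and CDK6 with 1.29. EGFR had 1.06 and IGF1R 0.635 (0.0769 to 2.29). Of the 36 pairs of genes, only AXL and IGF1R had intervals that did not overlap, and the intervals of all neighbours in this order overlapped. The intervals treat clusters as independent, which clusters of 1 transcript are not, and do not include the spread between libraries. The 4 AXL clusters include the pair 56 bases apart. Whether AXL still separates from IGF1R with that pair counted as 1 was not tested, nor was its window share below. Among windows of the length of AXL on the plus strand of chromosome 19, 1.01% held 4 or more clusters, or 4.14% of the windows with any cluster. Among windows of the length of MET on the plus strand of chromosome 7, 1.19% held 5 or more, or 4.50% of those with any cluster. Most such windows held none (75.6% and 73.5%), and untranscribed sequence was not separated. The matching shares of all windows were 27.7% for the 4 of NF1, 13.8% for the 3 of CDK6, 20.3% for the 2 of EGFR, 13.5% for the 1 of MTAP and 37.8% for the 2 of IGF1R.

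**Figure D2:**
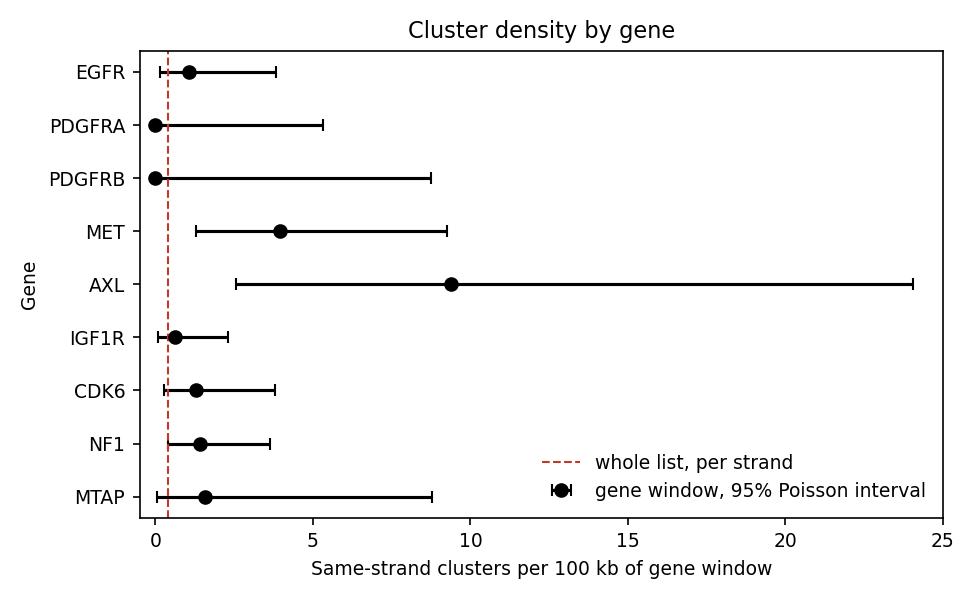
Same-strand clusters per 100 kb of gene window (x axis) for the 9 genes (y axis), as points with 95% Poisson intervals, and the density of the whole list per strand as a dashed line at 0.401. AXL at 9.39 and MET at 3.97 are highest, and most intervals overlap.

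All clusters in the windows lay on the strand of the gene. The 21 same-strand clusters were set against 0 on the opposite strand of the same 9 windows (same-strand share 100%, exact 95% interval 83.9 to 100%). The rule picked the 21 by strand, so only the count of 0 was free to vary. The interval treats clusters as independent, which clusters of 1 gene are not, and so it is too narrow. Flanks of the same length on both sides of each window held 32 clusters, 17 on the strand of the gene and 15 opposite. Same-strand density was 1.54 clusters per 100 kb within the windows (Poisson interval 0.955 to 2.36), 0.624 in the flanks and 0.401 over the whole list. The flanks hold other genes and untranscribed sequence, which were not separated. Of the 17 same-strand flank clusters, 14 lay downstream and 3 upstream. The downstream ones included 4 after NF1, 3 after MET, 3 after CDK6 and 2 after AXL. IGF1R had no opposite-strand cluster in its window, and its flanks held 9.

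The Alu share of the 21 clusters was 66.7% (Wilson 95% interval 45.4 to 82.8%), where the whole list had 84.9%. The flanks had 29 Alu clusters of 32, 90.6% (75.8 to 96.8%). Of the 7 non-Alu clusters, 5 were in MET and AXL, and EGFR and NF1 had 1 each. IGF1R, CDK6 and MTAP had Alu clusters only. Without the 5 MET clusters the Alu share was 68.8% (44.4 to 85.8%), and without the 4 AXL clusters it was 76.5% (52.7 to 90.4%). Both intervals include the share of the whole list, but they rest on only 16 and 17 clusters. The interval of all 21 does not include it. Nor do those without EGFR, IGF1R, CDK6, NF1 or MTAP, with upper limits of 84.6, 80.9, 79.7, 82.7 and 81.9%. These intervals treat clusters as independent, which clusters of 1 gene are not, and so they are too narrow. The sets with 1 gene left out share most of their clusters and are not separate results. No test of the difference was made, since clusters of 1 gene are not replicates, and whether an interval includes 84.9% does not replace one.

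Summed over the windows, the 3′ ends held more clusters than the 5′ ends, but not in every gene. Of the 21, 6 had their midpoint in the last 10% of a window and 2 in the first 10%. The 6 were the EGFR pair, the last MET cluster, the AXL pair and the MTAP cluster, and 3 of them were non-Alu. IGF1R, CDK6 and NF1 had no cluster in the last 10%. The counts are small, the AXL pair lies 56 bases apart, and no share for other genes was at hand. In 3 of the 21, 1 each in EGFR, MET and AXL, the distance from the cluster's start to the 3′ edge was shorter than the last exon of the matching transcript.

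Cluster lengths ranged from 42 to 308 bases with a median of 177, and the whole list had a median of 192. The quartiles were 157 to 241 bases for the 21 and 151 to 221 for the whole list. The 14 Alu clusters had a median of 176 bases and a range of 109 to 288. The 7 non-Alu clusters had a median of 241 and spanned 42 to 308, so the non-Alu class held both the shortest and the longest. Per the labels' protocols, PCR products were selected by size on a gel, and its part in these lengths was not tested.

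**Figure D3:**
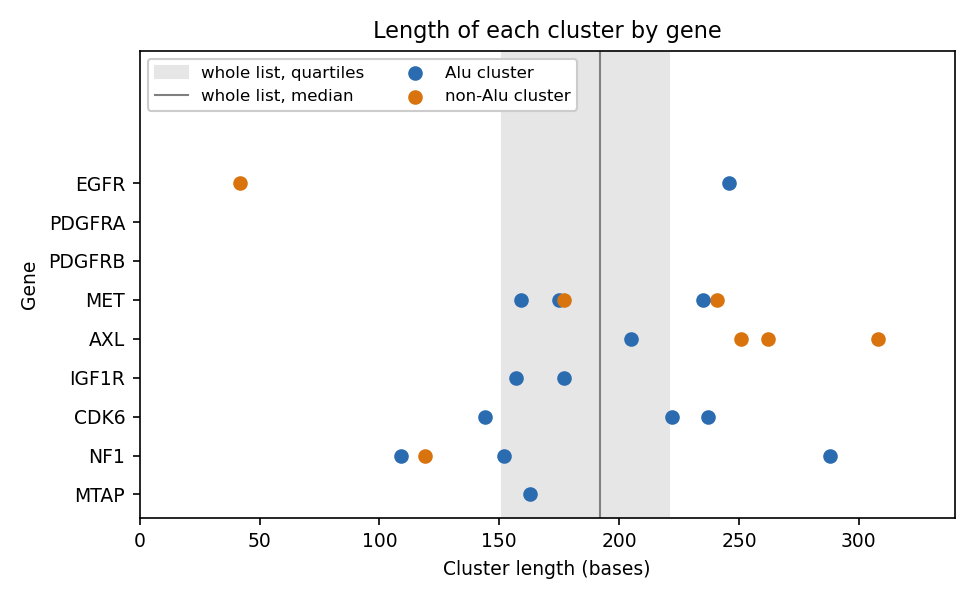
Length in bases (x axis) of each of the 21 clusters by gene (y axis), coloured by class, with the median (192) and quartiles (151 to 221) of the whole list as a line and a grey band. The non-Alu clusters of AXL, at 251 to 308 bases, lie to the right of the band and the 42-base cluster of EGFR far to its left.

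Gaps between consecutive clusters of a gene exceeded 10 kb in 10 of 14 cases, with a median of 32.4 kb. Over the whole list, 18677 of 23734 gaps between same-strand clusters did so, with a median of 45.7 kb, also counting gaps between genes. A same-strand neighbour within 1000 bases was found for 2 of the 21, 9.52% (Wilson interval 2.65 to 28.9%), against 6.70% of the whole list. Both were the AXL pair. The median distance to the nearest same-strand cluster was 19.7 kb for the 21 and 17.7 kb for the whole list.

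MTAP encodes methylthioadenosine phosphorylase, an enzyme that salvages methionine and adenine, and lies beside the cell cycle inhibitor genes of 9p21. The 9p21 region is known to be deleted in U87MG, yet 1 cluster was listed in the MTAP window (chr9:21802600-21866000, plus strand). It was an Alu cluster of 163 bases at chr9:21860730-21860892, 5.11 kb before the 3′ edge. On the same strand, a non-Alu cluster of 214 bases lay at chr9:22012485-22012698 and an Alu cluster of 184 bases at chr9:22076676-22076859. These 3 stood alone on either strand: a stretch of 877.2 kb without a cluster preceded the MTAP cluster, and one of 668.2 kb followed the last of the 3. Of 980 gaps between clusters on chromosome 9, 23 were as long as the first or longer and 33 as long as the second or longer. Within 1.5 Mb of the window there were 12 clusters, of which 9 were plus-strand and 11 were Alu. In steps of 100 kb out to 1.5 Mb on either side, 26.7% held a cluster, counting both strands. Of the 100 kb windows on chromosome 9, also counting both strands, 32.9% did, so these shares are not comparable with the shares for 1 strand above. The limits of the deletion are not in the data, so 26.7% is not the share of the deleted part. The windows on chromosome 9 also include untranscribed sequence. DNA copy number, read numbers and read placement were not measured in the list, so where the reads of the MTAP cluster came from was not tested.

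**Figure D4:**
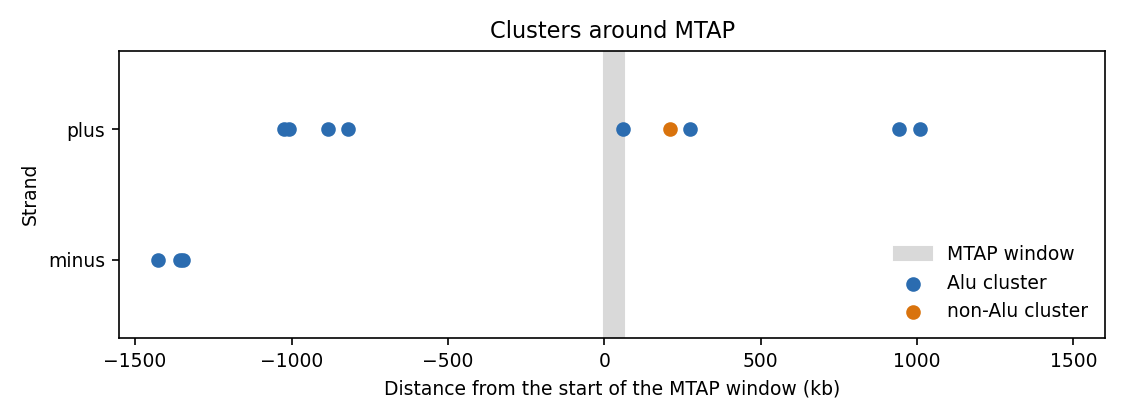
Clusters within 1.5 Mb of the MTAP window (points, coloured by class) by distance from its start in kb (x axis) and by strand (y axis), with the window in grey. The MTAP cluster and 2 more lie together on the plus strand, with 877.2 kb before them and 668.2 kb after them free of clusters.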

How the data were processed

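The submitters' processing notes name cutadapt 1.1, Novoalign 2.08.22 and the hg19 build. How clusters were called, how reads with several matches were placed, how the 2 libraries were combined and how the Alu class was set is not given in the sources used. Such choices decide which repeat copies are listed and how long clusters are. The deposited list holds start and end positions in bases. Starts were read as counted from 0 and are printed counting from 1. Python 3.11.15, numpy 2.4.6, pandas 2.3.3, scipy 1.17.1 and matplotlib 3.10.9 were used, and assignment, gaps and merging were checked on simulated clusters. Windows of each gene's length were tiled along its chromosome between the first and last cluster. Intervals are 95% (exact Poisson, Wilson or exact binomial) and cover counting error only.

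The genes, their windows and the settings were chosen with earlier results of these data known, and all 9 genes are named whatever their counts. GENCODE release 29 (GRCh38) gave only transcript and exon lengths, from the coding transcript whose span was closest to the window. These spans differed from the windows by 36 to 386 bases, except by 2803 bases in CDK6. A list of 30 other glioma genes was not analysed here, because no hg19 annotation was used, and no sequence was read.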

Additional observations from a re-analysis of the deposited data

How the results depend on the processing

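Of 79 alternative values, 71 stayed within 1.5 times the reported count or, for the Alu share and the median length, within the Wilson interval or 1 SD. This tally is no measure of robustness, since some values could not move. Merging within 50 bases cannot join clusters at least 56 bases apart, and windows with 0 opposite-strand clusters gain none when strand is ignored. The total count and the total density largely repeat each other. Counting any overlap or only whole clusters, merging clusters within 50 bases, or ignoring strand gave the same 21 clusters, and extending the windows by 10 kb gave 23. A length filter at the list's median, 192 bases, left 10 clusters, or 0.734 per 100 kb, by construction. It left 0 in IGF1R and MTAP. With a neighbour distance of 5000 bases, 4 clusters had a neighbour instead of 2. The Alu share ranged from 60.0% (with that filter) to 76.5% (without AXL). Leaving out each gene other than MET in turn was chosen after seeing the data. No paired analysis was possible because AB1 and AB2 have 1 library each, joined in 1 list, and so no library was left out. With no read numbers, neither weak clusters nor genes without one can be judged.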
